A study of Mus musculus with 12 samples.

Results

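The prefrontal cortex of germ-free mice was compared with that of conventionally colonized mice through polyA-enriched RNA-seq, and the comparison rests on 8 of the 12 libraries of the series: 4 germ-free (GF) and 4 conventional (CON). All groups were male Swiss Webster mice aged 10 weeks, an outbred stock, bred as first-generation offspring of animals from one supplier and fed the same autoclaved diet. GF mice were kept without microbes in gnotobiotic isolators and CON mice in a standard animal unit. The parents were GF and CON breeding pairs, so that microbes, housing and parentage cannot be told apart. The other 4 libraries, from germ-free mice colonized at postnatal day 21, were not used. Each library was made from RNA of several mice pooled at random within their group, and the error of each value below reflects differences among pools. No agent, allele or transgene was used in either group.

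A germ-free animal lives from birth without bacteria and therefore without the metabolites and cell-wall signals that bacteria send to the host. The prefrontal cortex holds neurons, astrocytes, microglia, vessels and oligodendrocytes, the cells that wrap axons in myelin, a lipid-rich sheath built from a small set of proteins such as Mbp and Mobp. Neurons that fire switch on immediate early genes, which encode transcription factors and signalling regulators, and later effector genes such as Bdnf. The circadian clock is a loop in which Clock and Arntl drive Per, Cry and other repressors, and many immune genes are induced by interferons, the antiviral cytokines.

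The libraries held 22757169 to 29134760 counts on genes in CON and 13280926 (GF1) to 23465074 in GF. Distances between libraries, measured as the root mean square difference in log2 CPM over genes, overlapped within and between groups, with medians of 0.427 within CON, 0.462 within GF and 0.469 between groups. In a multidimensional scaling of the 500 genes that vary most between each pair of libraries, the first axis took 26.9% of the variance and held the CON libraries between 0.41 and 0.68 and the GF libraries between -1.34 and -0.13, with GF1 the farthest out. Markers of cortical neurons were high in every library, among them Slc17a7, the vesicular glutamate transporter, at 1328 to 1623 CPM (counts relative to the library total, scaled by TMM). CON2 stood apart by markers of striatal projection neurons, whose list value (the mean over the list of log2 CPM, minus the CON mean) was 0.87 there and between -0.34 and 0.03 in the other 7 libraries. Levels also moved with base composition: the median log2 fold change ran from 0.10 in the quintile of genes with the lowest GC content to -0.05 in the quintile with the highest, while single libraries spanned -0.08 (GF1 and CON2) to 0.27 (GF2) in the lowest quintile. The part of base composition and of CON2 and GF1 in single results was not tested beyond leaving each library out in turn.

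Of 15542 genes tested, 39 differed between GF and CON at an adjusted p under 0.1 in edgeR's quasi-likelihood test, 0.251% of the genes. Among these, 18 were higher in GF (0.116%) and 21 were lower (0.135%), and for each of the 39 the GF and CON libraries did not overlap. Over all genes, 2.54% had all GF libraries above all CON libraries and 2.56% had them all below. At an unadjusted p under 0.05, 738 genes (4.75%) were higher and 612 (3.94%) were lower in GF. The bulk of the transcriptome moved little: the median log2 fold change was 0.01, and 90% of genes lay between -0.41 and 0.36. The genes called higher in GF had a median level of 57.4 CPM and a median log2 fold change of 0.83, and those called lower had a median level of 15.3 CPM and a median of -1.02. A change of at least 2-fold was seen in 4 of the 18 genes called higher and in 11 of the 21 called lower. Of the 39, 13 stood in the study's own myelin-related or activity-induced lists, which were chosen on these samples, 9 stood in another of the gene lists used here, and 17 stood in none. When a library was left out, between 27 (without CON3) and 60 (without GF2) genes were called, and 23 of the 39 remained called in all 8 such fits.

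**Figure D1:**
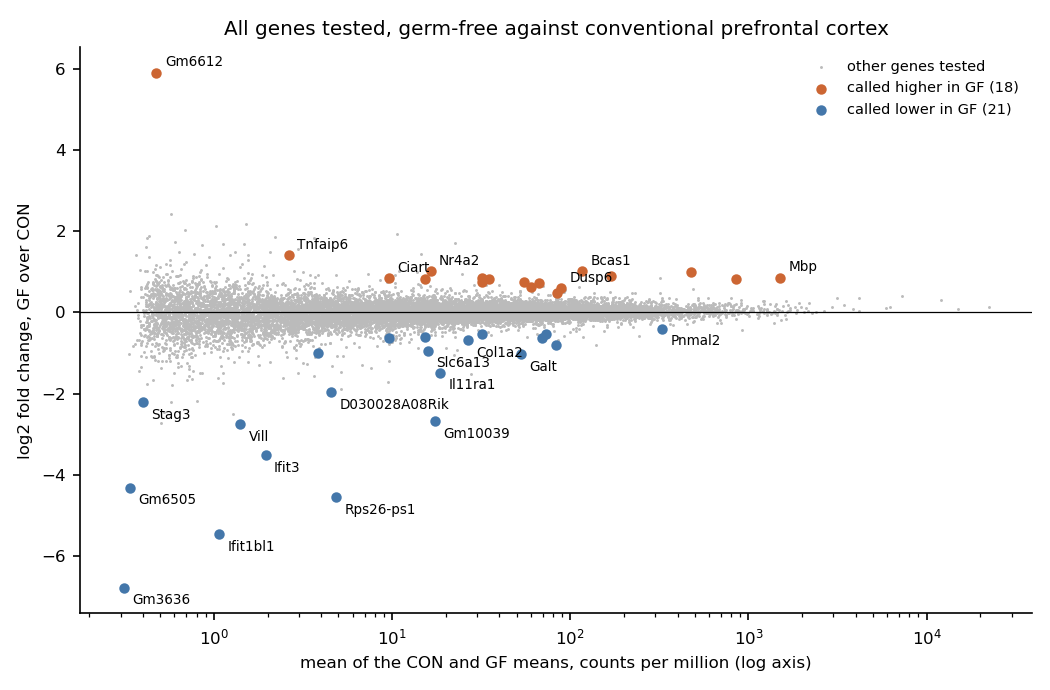
Each point is a gene, with its mean level in CPM on a log axis and its log2 fold change of GF over CON on the vertical axis; orange marks the 18 genes called higher and blue the 21 called lower. The genes called higher lie mostly between 0.49 and 1.42 on the log2 scale, while those called lower reach down to -6.79 and are spread over low and high levels.

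Genes of mature oligodendrocytes were higher in GF: 43 of the 45 members tested had a positive log2 fold change, 33 of 45 had an unadjusted p under 0.05 in that direction (4.75% of all genes did) and 9 were called. The median over the list was 0.48, against 0.01 over all genes, and the summed level of its members was 3466 to 4175 CPM in CON and 4962 to 7789 CPM in GF. With 1 library left out, 24 (without GF3, median 0.33) to 37 (without GF2, median 0.57) members had an unadjusted p under 0.05. The list then had 7 (without CON3) to 13 (without GF2) calls. More oligodendrocytes and more myelin RNA in each cannot be told apart in RNA from whole tissue. Mbp, the myelin basic protein that holds the membrane layers together, was at 1200, 1130, 979 and 982 CPM in CON1 to CON4 and 1929, 1454, 2556 and 1852 CPM in GF1 to GF4. The groups did not overlap, with a log2 fold change of 0.86 ± 0.14 (± SE, here and below) and an adjusted p of 0.0181. GF3 was the highest library, and GF2 the lowest of the GF libraries.

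The other called members had like changes. Mobp, a small basic protein of the compact sheath, was at 321, 379, 273 and 303 CPM in CON1 to CON4 and 558, 473, 839 and 667 CPM in GF1 to GF4, with a log2 fold change of 0.99 ± 0.15 (adjusted p = 0.0168). Mal, a lipid-raft protein of myelin, changed by 0.89 ± 0.14 on the log2 scale (adjusted p = 0.0168). Ermn, a cytoskeletal protein of late oligodendrocytes, changed by 0.85 ± 0.12 (adjusted p = 0.012), and Tspan2, a tetraspanin of the oligodendrocyte membrane, by 0.72 ± 0.11 (adjusted p = 0.0168). Cldn11, which forms the tight junctions between myelin layers, changed by 0.75 ± 0.12 (adjusted p = 0.0214), and Tmem88b by 0.75 ± 0.14 (adjusted p = 0.0424). Mog, a protein of the outermost myelin surface, was at 25.8, 30.1, 22.9 and 22.8 CPM in CON1 to CON4 and 44.7, 34.3, 57.8 and 42.3 CPM in GF1 to GF4, with a log2 fold change of 0.82 ± 0.14 (adjusted p = 0.0343). Without CON3 the call was lost for Mog, with an adjusted p of up to 0.147, and without CON1 or CON3 it was lost for Tmem88b, with an adjusted p of up to 0.154.

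Outside the study's list the direction was alike. The study chose its genes on these samples, so the numbers of calls inside and outside its list cannot be compared. Of 31 mature oligodendrocyte genes that the study did not list, 29 were positive, 19 had an unadjusted p under 0.05, and 1 was called (Tmem88b), with a median of 0.37. Among them, Aspa, which cleaves N-acetylaspartate to supply acetate for myelin lipids, had a log2 fold change of 0.55 ± 0.15 (adjusted p = 0.234), and Fa2h, which makes the hydroxylated fatty acids of myelin, had 0.57 ± 0.18 (adjusted p = 0.336). Cnp, an enzyme of non-compact myelin, was at 156, 176, 139 and 141 CPM in CON1 to CON4 and 216, 139, 242 and 182 CPM in GF1 to GF4, and the groups overlapped (log2 fold change 0.35 ± 0.14, adjusted p = 0.491). The transcription factors were divided: Myrf, which drives myelin genes in maturing cells, had 0.55 ± 0.14 (adjusted p = 0.177), while Sox10, Olig1 and Olig2, which mark the whole lineage, had 0.26, 0.05 and 0.05 (adjusted p = 0.613, 0.941 and 0.953). The study's own 14 myelin-related genes, chosen on these samples, were all positive, with a median of 0.73 and 8 called.

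For earlier stages of the lineage the medians were closer to that of all genes, and the difference between stages was not tested. Newly formed oligodendrocytes had a median of 0.08 over 13 members, of which 7 were positive and 1 was called. Their summed level, which includes the called gene, was 395 to 439 CPM in CON and 461 to 544 CPM in GF, without overlap. The list value, in which each member weighs the same, did overlap, at -0.11 to 0.13 in CON and -0.002 to 0.12 in GF. The called gene was Bcas1, a marker of oligodendrocytes that begin to myelinate, at 81.3, 86.2, 77.3 and 63.4 CPM in CON1 to CON4 and 139, 124, 207 and 155 CPM in GF1 to GF4. The groups were apart, with a log2 fold change of 1.02 ± 0.14 (adjusted p = 0.012). Gpr17, the receptor that marks the committed precursor, was at 83.9, 93.5, 76 and 77.1 CPM in CON1 to CON4 and 69.3, 70.00, 77.8 and 79 CPM in GF1 to GF4, with a log2 fold change of -0.16 ± 0.09 (adjusted p = 0.652). Enpp6, another gene of the newly formed cell, had 0.60 ± 0.22 (adjusted p = 0.426). Oligodendrocyte precursors had a median of -0.05, with 3 of 15 members positive and none called; Pdgfra, the growth factor receptor that defines them, had -0.02 ± 0.10 and Cspg4 had -0.01 ± 0.13. At an unadjusted p under 0.05, 2 of 15 precursor genes were lower and 0 higher (3.94% and 4.75% of all genes), and 0 were lower without GF1 or GF4.

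**Figure D2:**
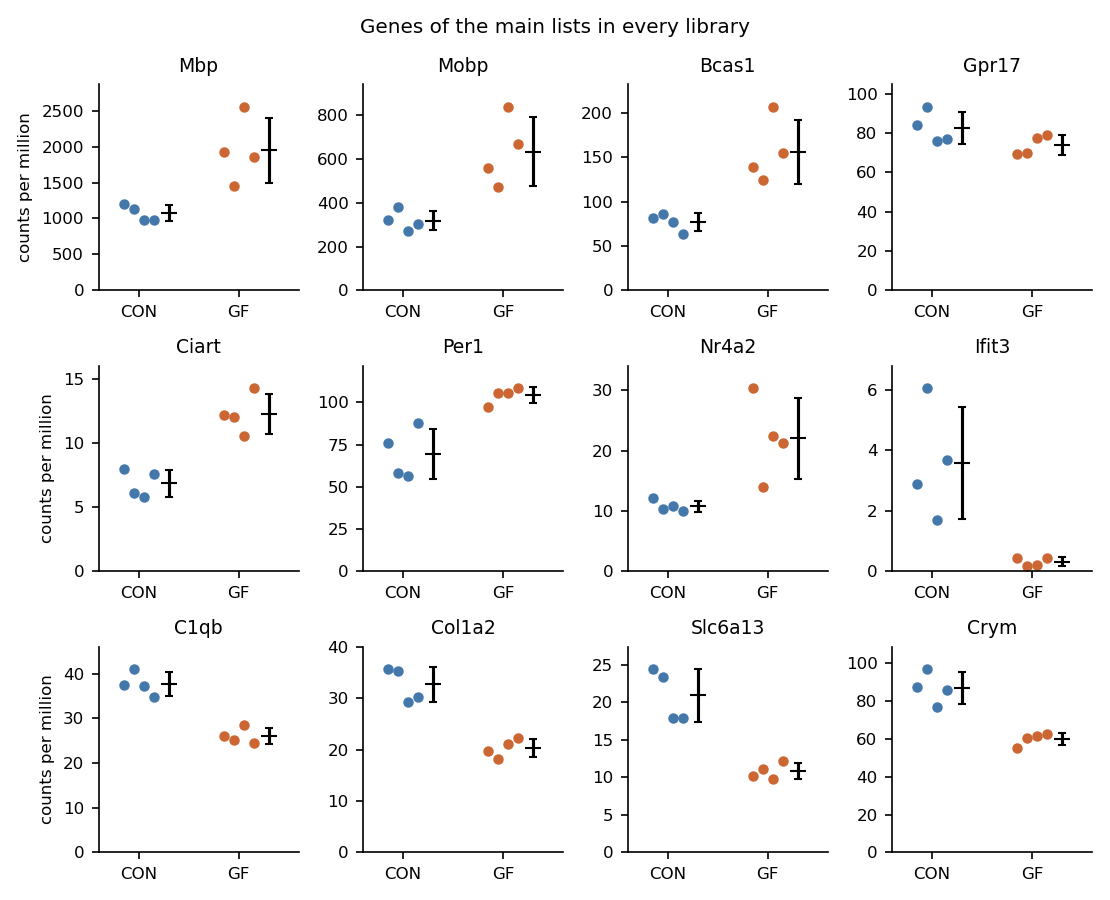
Levels of 12 genes in CPM, with 1 point per library (CON blue, GF orange) and the mean with its SD over 4 libraries in black at the right of each group. The groups are apart in 11 panels and overlap for Gpr17.

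Genes of large, fast-conducting axons had a median log2 fold change of 0.26, with 10 of 12 positive and none called. Of these, 7 had an unadjusted p under 0.05, all higher in GF, and this number lay between 4 (without GF1) and 8 (without GF2) when a library was left out; without GF2, 4 members were called. Syt2, the fast calcium sensor of synaptic release, was at 26.4, 21.9, 29 and 26.7 CPM in CON1 to CON4 and 51.3, 29.2, 45 and 40.4 CPM in GF1 to GF4, without overlap (0.67 ± 0.15, adjusted p = 0.137). Scn4b, a sodium channel subunit, was at 46.9, 60.2, 59.99 and 50.5 CPM in CON1 to CON4 and 112, 60.6, 93 and 75.2 CPM in GF1 to GF4 (0.65 ± 0.16, adjusted p = 0.16). In both genes GF1 was the highest library and GF2 the closest to CON. The neurofilament genes Nefl, Nefm and Nefh, which set axon calibre, had 0.26, 0.47 and 0.43 (adjusted p = 0.336, 0.408 and 0.478). Enzymes of fatty acid and sphingolipid synthesis had a median of 0.15 and 0 calls among 13 (1 without GF1). Ugt8a, which makes the galactolipids of myelin and stands in the study's list, had 0.68 ± 0.14 (adjusted p = 0.115), whereas Fasn, the general fatty acid synthase, had -0.13 ± 0.08 (adjusted p = 0.693). Genes of cholesterol synthesis and uptake, another lipid of the sheath, had a median of 0.01 over 25 members.

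Immediate early genes were higher in GF for 30 of 35 members, with a median of 0.43; 22 had an unadjusted p under 0.05, 3 were called and none was lower at that p. Ier5, an early response gene, was at 75.5, 69.9, 66.2 and 68.1 CPM in CON1 to CON4 and 99.4, 90.5, 95.2 and 107 CPM in GF1 to GF4, the smallest change among the genes called higher (log2 fold change 0.49 ± 0.08, adjusted p = 0.0277). Nr4a2, an orphan nuclear receptor induced by calcium entry, was at 12.1, 10.4, 10.8 and 10.01 CPM in CON1 to CON4 and 30.4, 13.9, 22.5 and 21.3 CPM in GF1 to GF4 (1.02 ± 0.18, adjusted p = 0.0384). GF1 was the highest and GF2 lay just above the CON libraries. Sik1, a kinase that limits CREB-driven transcription, was at 11.8, 10.03, 9.3 and 13.3 CPM in CON1 to CON4 and 18.1, 15.7, 20.4 and 24.3 CPM in GF1 to GF4 (0.82 ± 0.15, adjusted p = 0.0426). The calls depended on single libraries: the list had 9 calls without CON1, 6 without GF2, 2 without CON2, 1 without GF3 or GF4 and 0 without CON3. Sik1 lost its call without CON2, CON3, GF3 or GF4 (adjusted p up to 0.154), Nr4a2 without CON3 or GF3 (up to 0.134) and Ier5 without CON3 or GF4 (up to 0.134). The number at an unadjusted p under 0.05 lay between 15 (without GF3) and 24 (without GF1).

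The best known activity markers had moderate values. Arc, which acts at active synapses, was at 305, 157, 188 and 269 CPM in CON1 to CON4 and 417, 300.2, 446 and 484 CPM in GF1 to GF4; only GF2 fell within the CON range (0.84 ± 0.19, adjusted p = 0.135). Fos, the classic activity marker, was at 41.8, 22, 21.9 and 33.6 CPM in CON1 to CON4 and 36.1, 40.2, 48.5 and 48.1 CPM in GF1 to GF4, with overlapping groups (0.54 ± 0.18, adjusted p = 0.398). Egr1 had 0.47 ± 0.11 (adjusted p = 0.144), Nr4a1 0.62 ± 0.13 (adjusted p = 0.125) and Junb 0.47 ± 0.17 (adjusted p = 0.424). Npas4, which responds to calcium entry alone, had 0.09 ± 0.13 (adjusted p = 0.885) and Fosb 0.22 ± 0.17 (adjusted p = 0.767). CON1 stood above the other CON libraries over the whole list (list value 0.23, against -0.09 to -0.04), and the GF libraries lay between 0.25 and 0.61. Of the 25 members that the study did not list, 20 were positive, 12 had an unadjusted p under 0.05 and 0 were called, with a median of 0.34. The study's 26 activity-induced genes, chosen on these samples, were all positive, with a median of 0.54 and 5 called.

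Late effectors of activity were positive in 17 of 17 members, with a median of 0.19, 5 at an unadjusted p under 0.05 and 1 called. The called gene was Tnfaip6, a secreted protein that binds hyaluronan, at 1.67, 0.85, 1.8 and 1.4 CPM in CON1 to CON4 and 3.56, 2.94, 4.87 and 4.06 CPM in GF1 to GF4 (1.42 ± 0.26, adjusted p = 0.0397). It lost its call without GF3 or GF4 (adjusted p up to 0.169). Of the 15 late effectors outside the study's lists, which were chosen on these samples, 15 were positive, with a median of 0.18. Among these 15, 3 had an unadjusted p under 0.05 and 0 were called. Bdnf, a growth factor released by active neurons, was at 33.5, 31.8, 36.3 and 34.6 CPM in CON1 to CON4 and 42, 54.1, 40.2 and 57.5 CPM in GF1 to GF4, without overlap (0.51 ± 0.12, adjusted p = 0.144). In the ERK pathway, which carries growth factor and activity signals to the nucleus, a kinase gene and the feedback genes had values of opposite sign. Dusp6, the phosphatase that ERK induces against itself, was at 78.7, 61.4, 67.8 and 75.5 CPM in CON1 to CON4 and 101, 109, 103 and 115 CPM in GF1 to GF4 (0.60 ± 0.09, adjusted p = 0.0168), and Spry4, an inhibitor further upstream, had 0.39 ± 0.11 (adjusted p = 0.225). Mapk3, which encodes ERK1, was at 192, 204, 149 and 172 CPM in CON1 to CON4 and 116, 137, 137 and 135 CPM in GF1 to GF4, all GF libraries below all CON libraries (-0.45 ± 0.10, adjusted p = 0.144). The list as a whole had 12 of 17 members positive and a median of 0.11. Outside the study's lists, 10 of 15 ERK members were positive and 0 were called, with a median of 0.05.

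Clock genes that peak with Per were higher in GF in 11 of 11 members, with a median of 0.38; 9 had an unadjusted p under 0.05 (8 or 9 when any library was left out), 5 had no overlap between groups, and 1 was called. Ciart, a repressor of the Clock and Arntl pair, was at 7.96, 6.12, 5.8 and 7.62 CPM in CON1 to CON4 and 12.2, 12.1, 10.5 and 14.4 CPM in GF1 to GF4 (0.84 ± 0.15, adjusted p = 0.0315). Dbp, a transcription factor with one of the strongest daily rhythms, was at 27.2, 26.7, 21 and 20.8 CPM in CON1 to CON4 and 37.8, 35, 31.4 and 35.3 CPM in GF1 to GF4 (0.54 ± 0.11, adjusted p = 0.11). Per1, a core repressor that also responds to neuronal activity, was at 75.7, 58.5, 56.5 and 87.8 CPM in CON1 to CON4 and 97.4, 106, 106 and 109 CPM in GF1 to GF4 (0.59 ± 0.13, adjusted p = 0.119). In all 3 genes every GF library lay above every CON library. Nr1d1, which encodes the repressor REV-ERB alpha, had 0.38 ± 0.09 (adjusted p = 0.159), Hlf 0.33 ± 0.08 (adjusted p = 0.159) and Nr1d2 0.42 ± 0.13 (adjusted p = 0.322). Genes that peak with Arntl had a median of -0.02 over 6 members: Arntl itself was at 52, 46.1, 62.6 and 53.3 CPM in CON1 to CON4 and 45.7, 47.1, 47 and 48.1 CPM in GF1 to GF4 (-0.19 ± 0.10, adjusted p = 0.617), and Clock, Npas2 and Cry1 had -0.05, -0.05 and 0.02. The hour at which each mouse was killed is not given in the sources used here, so the part of the time of day was not tested. Ciart lost its call without CON3 or GF4 (adjusted p up to 0.133), which left the list with 0 calls, and the list had 2 calls without CON1, CON2 or CON4.

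Promoters of some Per-phase genes are shown because several hold E-boxes, the letters CACGTG that Clock and Arntl bind. Of 11 genes, 9 matched a RefSeq promoter (GRCm38.p6, 250 bases before to 50 after a start site), and 4 of these 9 (44.4%) held CACGTG on either strand, against 8.09% of 27025 genes with a promoter. The cyclic AMP response element TGACGTCA, which CREB binds, was found in 1 of the 9 (2.03% of all genes) and the D-box, searched as TTATGTAA or TTACGTAA, in 1 of the 9 (1.23% of all). Ciart held 3 E-boxes within its window. Tef also held E-boxes but is not printed below. Hlf is printed for its cyclic AMP response element and Per3 for its D-boxes. The stretches below lie before the start site, 5′ to 3′ in the direction of the gene, with the matched letters in capitals. Coordinates are chr3:95882247-95882364 (Ciart, minus strand), chr11:69098763-69098808 (Per1, plus strand), chr6:145865548-145865593 (Bhlhe41, minus strand), chr11:90390918-90390946 (Hlf, minus strand) and chr4:151044796-151044890 (Per3, minus strand).
Ciart: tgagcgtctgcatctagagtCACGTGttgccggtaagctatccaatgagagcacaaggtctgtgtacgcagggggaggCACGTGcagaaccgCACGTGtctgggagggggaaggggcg
Per1: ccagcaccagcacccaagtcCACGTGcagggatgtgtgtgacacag
Bhlhe41: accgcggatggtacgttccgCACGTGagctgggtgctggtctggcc
Hlf: tcggcgcgcggtgcgggcccTGACGTCAc
Per3: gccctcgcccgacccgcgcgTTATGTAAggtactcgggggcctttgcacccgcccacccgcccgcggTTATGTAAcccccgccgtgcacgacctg

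Among immediate early genes, 28 of 35 matched a promoter; TGACGTCA was found in 4 of the 28 (14.3%), CACGTG in 7 (25%) and the serum response element (the CArG box, 10 letters, both strands) in 3 (10.7%, against 1.81% of all genes). The called genes Ier5 and Nr4a2 held none of these letters in their windows. Dusp1, a phosphatase of the MAP kinases with 0.67 ± 0.16 on the log2 scale (adjusted p = 0.154), is shown since it held both a cyclic AMP response element and an E-box, at chr17:26508573-26508635 (Dusp1, minus strand). Of 30 interferon-induced genes with a promoter, 0 held any of the 4 motifs, and of 30 mature oligodendrocyte genes 1 held an E-box and 1 a serum response element. These matches are letters in a sequence and are not evidence of binding.
Dusp1: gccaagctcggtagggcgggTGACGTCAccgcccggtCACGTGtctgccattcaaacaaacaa

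**Figure D3:**
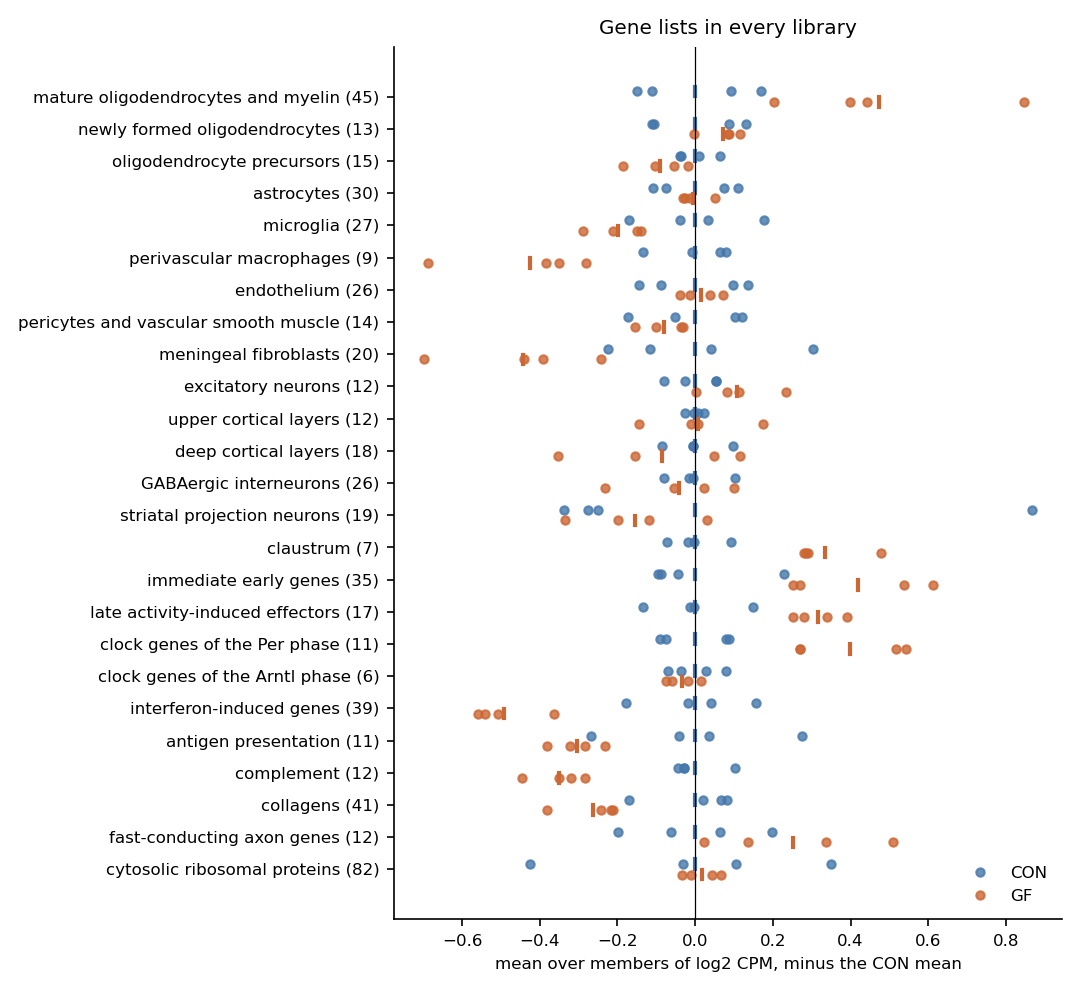
Mean over the members of each list of log2 CPM, minus the CON mean, with 1 point per library (CON blue, GF orange) and a bar at each group's mean; the number of members tested is in brackets. GF lies to the right of CON for mature oligodendrocytes, immediate early genes and Per-phase clock genes, to the left for interferon-induced genes, complement and meningeal fibroblasts, and CON2 alone lies far right for striatal neurons.

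Interferon-induced genes were lower in GF in 32 of 39 members tested, with a median of -0.31; 11 were lower and 1 higher at an unadjusted p under 0.05 (3.94% and 4.75% of all genes), and 2 were called, both lower. The list value, in which each member weighs the same, was -0.18 to 0.16 in CON and -0.56 to -0.36 in GF, without overlap. The summed level of the members did overlap, at 204 to 229 CPM in CON and 185 to 206 CPM in GF. Ifit3, an antiviral protein that binds RNA, was at 2.9, 6.08, 1.7 and 3.68 CPM in CON1 to CON4 and 0.445, 0.178, 0.214 and 0.439 CPM in GF1 to GF4 (-3.52 ± 0.45, adjusted p = 0.0063). Its neighbour Ifit1bl1, of the same family, held 39, 52, 38 and 87 reads in CON1 to CON4 and 2, 1, 0 and 0 in GF1 to GF4 (adjusted p = 0.00519), at least 12.3-fold lower in GF against a floor of 3 reads in each GF library. The pair lies on chromosome 19, Ifit3 at 34583531 to 34588731 on the plus strand and Ifit1bl1 at 34592891 to 34601956 on the minus strand, 4160 bases apart. The counts of Ifit3 are uncertain, since 61.8% of its 31-base words also occur in Ifit3b. For Ifit1bl1 this share was 19.3%.

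Other members had smaller values. Ifit1 was at 3.76, 3.49, 3.63 and 2.62 CPM in CON1 to CON4 and 1.11, 1.96, 2.09 and 1.59 CPM in GF1 to GF4 (-0.98 ± 0.23, adjusted p = 0.155) and Irf7, the transcription factor that amplifies the response, at 3.06, 2.38, 2.61 and 1.67 CPM in CON1 to CON4 and 1.26, 1.65, 1.18 and 1.48 CPM in GF1 to GF4 (-0.79 ± 0.25, adjusted p = 0.346); neither was called and neither overlapped between groups. Ifit2, 1 of 7 members with a positive value, was at 7.43, 7.1, 7.2 and 7.17 CPM in CON1 to CON4 and 13.6, 21.3, 14 and 5.37 CPM in GF1 to GF4 (0.91 ± 0.28, adjusted p = 0.317), with GF4 below the CON libraries, and it was called higher without GF4 (log2 fold change 1.18, adjusted p = 0.0144) and with no filter on low counts (adjusted p = 0.0222), with adjusted p up to 0.572 in the other alternatives. Ifih1, an RNA sensor, had 0.03 ± 0.17 (adjusted p = 0.979). Without CON2, 7 members in place of 11 were lower at an unadjusted p under 0.05.

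Microglia, the resident immune cells, had a list median of -0.19, with 23 of 27 members negative, 5 lower at an unadjusted p under 0.05 and 1 called. C1qb, a chain of the complement protein C1q, was at 37.4, 41.1, 37.3 and 34.7 CPM in CON1 to CON4 and 26, 25.1, 28.5 and 24.4 CPM in GF1 to GF4 (-0.53 ± 0.09, adjusted p = 0.0307). Its partner chain C1qa was at 47, 57.9, 43.4 and 37.1 CPM in CON1 to CON4 and 40.4, 35.7, 38.4 and 32.5 CPM in GF1 to GF4, with overlap (-0.34 ± 0.13, adjusted p = 0.438). The defining markers P2ry12, Tmem119 and Aif1 had 0.07, -0.11 and 0.00 (adjusted p = 0.92, 0.848 and 0.998), and Csf1r, the receptor on which microglia depend, had -0.24 ± 0.08 (adjusted p = 0.366). C1qb lost its call without CON3 or GF4 (adjusted p up to 0.124), and the 5 genes at an unadjusted p under 0.05 became 12 without CON4, 8 without GF3 and 3 without GF4. Lyz2, the lysozyme of macrophages, was at 11.6, 12.9, 12.1 and 10.4 CPM in CON1 to CON4 and 7.33, 7.49, 7.6 and 7.78 CPM in GF1 to GF4 (-0.64 ± 0.12, adjusted p = 0.0522). It shares 32.8% of its 31-base words with Lyz1 and lost its call without any of CON1, CON2, CON3, GF2, GF3 or GF4 (adjusted p up to 0.177).

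Complement genes were negative in 10 of 12 members, with a median of -0.40; 6 were lower and 1 higher at an unadjusted p under 0.05, and C1qb was the 1 called. C4b, of the classical pathway, was at 13.1, 11.5, 10.4 and 15 CPM in CON1 to CON4 and 5.41, 7.22, 8.19 and 9.21 CPM in GF1 to GF4, without overlap (-0.73 ± 0.17, adjusted p = 0.144). Cd55, an inhibitor of complement on cell surfaces, was at 6.53, 6.33, 6.89 and 6.11 CPM in CON1 to CON4 and 8.22, 8.07, 8.62 and 8.88 CPM in GF1 to GF4, all GF libraries above CON (0.38 ± 0.12, adjusted p = 0.351). Antigen presentation had a median of -0.33, with 8 of 11 negative and none called, and the median was -0.09 without CON4 and -0.16 without GF3. The summed level overlapped, at 133 to 215 CPM in CON and 176 to 184 CPM in GF. The class II genes H2-Eb1, H2-Aa and Cd74 had -1.49, -0.76 and -0.54 (adjusted p = 0.165, 0.43 and 0.471), and the class I genes H2-K1 and H2-D1 had 0.28 and 0.22. At an unadjusted p under 0.05, 4 genes of the list were lower, H2-Eb1, H2-Aa, Cd74 and the peptide transporter Tap2 (-0.61 ± 0.18, adjusted p = 0.313), and 2 without CON2. Perivascular macrophages, which line brain vessels, had a median of -0.49 over 9 members, 8 of them negative; Mrc1, their mannose receptor, had -0.49 ± 0.14 (adjusted p = 0.284) and Stab1, a scavenger receptor, -0.49 ± 0.13 (adjusted p = 0.218). The 17 genes of microbial pattern recognition tested, such as the Toll-like receptors, had a median of -0.10 and 0 at an unadjusted p under 0.05 (1 lower without GF3).

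Genes of meningeal fibroblasts, the cells of the membranes around the brain, were lower in GF in 20 of 20 members, with a median of -0.43; 13 had an unadjusted p under 0.05 (9 without CON1) and 2 were called (4 without CON4). Slc6a13, a GABA transporter of the leptomeninges, was at 24.5, 23.4, 17.9 and 17.9 CPM in CON1 to CON4 and 10.2, 11.2, 9.79 and 12.2 CPM in GF1 to GF4 (-0.94 ± 0.13, adjusted p = 0.012). Col1a2, a chain of type I collagen, was at 35.8, 35.4, 29.4 and 30.3 CPM in CON1 to CON4 and 19.7, 18.1, 21.1 and 22.3 CPM in GF1 to GF4 (-0.69 ± 0.11, adjusted p = 0.0168). Both were apart between groups and remained called in every fit without a library. Igf2, a growth factor made by meninges and choroid plexus, was at 116, 87.2, 92.5 and 79.9 CPM in CON1 to CON4 and 52.2, 71.4, 72.3 and 75.7 CPM in GF1 to GF4 (-0.46 ± 0.13, adjusted p = 0.25), and Ptgds, an abundant secreted enzyme of the meninges, was at 1235, 1399, 893 and 726 CPM in CON1 to CON4 and 716, 792, 794 and 842 CPM in GF1 to GF4, with overlap (-0.44 ± 0.16, adjusted p = 0.417). The summed level of the list was 1089 to 1841 CPM in CON and 1001 to 1203 CPM in GF, with overlap. The list value was -0.22 to 0.30 in CON and -0.70 to -0.24 in GF, so the groups lay close. Without CON1, 19 of 20 members were lower (median -0.30), and without GF1 18 of 20 were (median -0.37). How much meningeal tissue each dissection carried was not tested.

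Collagens as a family were negative in 32 of 41 members tested, with a median of -0.28; 12 were lower and 1 higher at an unadjusted p under 0.05, and Col1a2 was the 1 called (2 calls without GF2). Col23a1, a membrane collagen, was at 11.3, 13, 10.9 and 12.6 CPM in CON1 to CON4 and 6.22, 8.56, 7.6 and 8.06 CPM in GF1 to GF4 (-0.64 ± 0.13, adjusted p = 0.107), and Col4a5, of basement membranes, had -0.51 ± 0.17 (adjusted p = 0.398). Endothelial genes had a median of 0.03, with 16 of 26 positive, and pericyte genes one of -0.13 (-0.05 without CON2), with 4 of 14 positive; neither list had a call. Of 16 choroid plexus genes 6 could be tested, and Ttr, the most abundant of that tissue, was at 1.8, 1.02, 0.407 and 1.29 CPM in CON1 to CON4 and 9.26, 0.669, 0.375 and 0.384 CPM in GF1 to GF4, high in GF1 alone. The median of the choroid plexus list was 0.03, and -0.70 without GF1. Of 11 blood genes 5 were tested, of which 3 were positive, with a median of 0.25 that was below 0 without GF1 or GF3 (-0.03 without GF3). Over all alternatives the blood median ranged from -1.52 to 0.49. The haemoglobin chains Hbb-bs, Hbb-bt and Hba-a1 had -0.20, 0.57 and 0.25 (adjusted p = 0.667, 0.457 and 0.765), and S100a9, a neutrophil protein, had -1.66 ± 0.54 (adjusted p = 0.358).

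**Figure D4:**
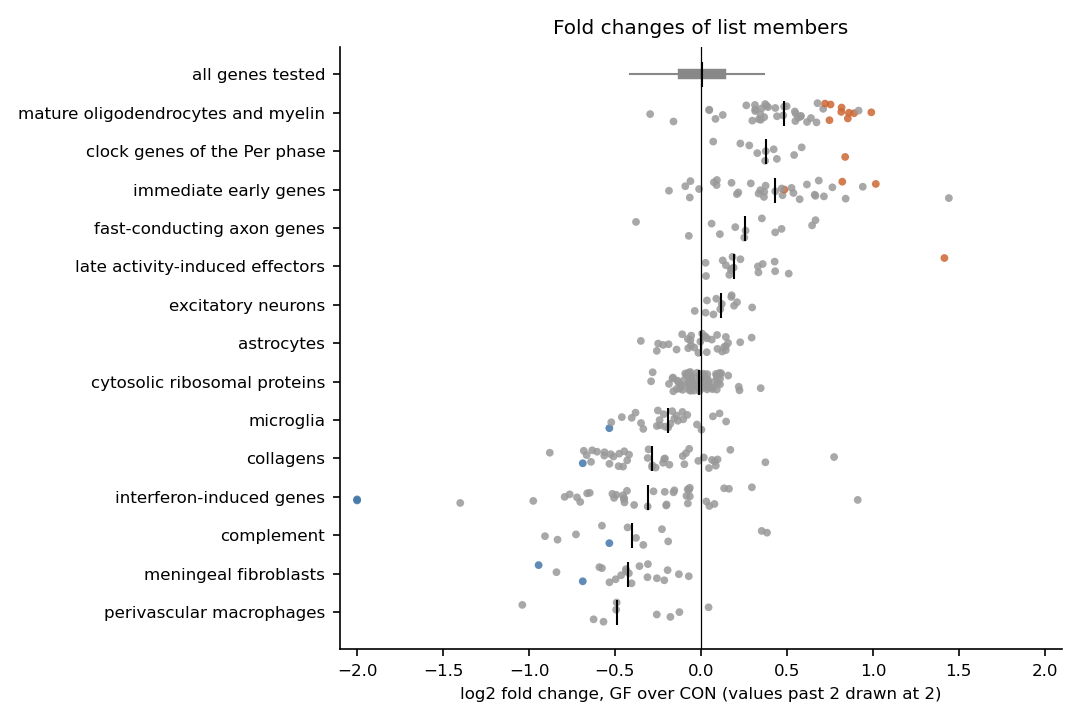
Log2 fold change of GF over CON for the members of 14 lists, each point a gene, orange or blue where called, with a black bar at the median; the top line gives the 5th to 95th percentile and the quartiles of all genes. Members of the upper lists lie mostly right of 0 and those of the lower lists left of it, and the 2 called interferon-induced genes are drawn at the edge of the axis.

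Neuronal and astrocyte lists had medians near that of all genes, between -0.12 and 0.14 whichever library was left out. Excitatory neurons had a median of 0.12 with 11 of 12 positive and none called, upper cortical layers one of 0.05, deep layers one of -0.03 and GABAergic interneurons one of -0.05. Astrocytes had a median of 0.00, with 15 of 30 positive; Aldh1l1, their folate enzyme, had 0.03 ± 0.10 and Gfap, their intermediate filament, -0.22 ± 0.12 (adjusted p = 0.95 and 0.636). The called gene of these lists was Crym, which binds thyroid hormone in deep-layer neurons, at 87.3, 97.1, 76.6 and 86 CPM in CON1 to CON4 and 55.3, 60.3, 61.6 and 62.5 CPM in GF1 to GF4 (-0.53 ± 0.09, adjusted p = 0.0242), with no overlap. The other members of the thyroid hormone list had a wide range, from Dio3, the enzyme that inactivates the hormone, at 1.84, 2.98, 2.14 and 1.86 CPM in CON1 to CON4 and 0.148, 1.78, 1.39 and 0.219 CPM in GF1 to GF4 (-1.23 ± 0.50, adjusted p = 0.49) to Hr, a target of the hormone receptor, with 0.30 ± 0.16 (adjusted p = 0.624). Pvalb, which marks fast-spiking interneurons, had 0.41 ± 0.18 (adjusted p = 0.56). Claustrum markers were positive in 7 of 7 members (median 0.22), and Nr4a2, described above, is one of them; the list value of the GF libraries was 0.28 to 0.48 and that of the CON libraries -0.07 to 0.09. Striatal genes had a median of -0.18 with CON2 and 0.18 without it. Olfactory bulb genes, of which 4 of 7 could be tested, had a median of -0.94 with 3 at an unadjusted p under 0.05, and one of -0.60 with 1 without CON3, and their summed level was 8.54 to 21.2 CPM in CON and 6.45 to 9.26 CPM in GF.

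Lists for basic cell functions, synapses and stress had medians close to that of all genes and held 0 calls in the fit of all 8 libraries. With 1 library left out, 7 of these lists gained 1 call: potassium channels without CON2, synaptic vesicle proteins and heat shock proteins without GF1, sodium channels and the oxidative stress response without GF2, tubulins without GF4 and glucocorticoid-responsive genes without CON1. At an unadjusted p under 0.05 each list held 0 to 7 genes higher and 0 to 3 lower. Large moves of these counts came with CON2, CON4 and GF1. Mitochondrially encoded proteins, positive in 7 of 7 members tested (median 0.13), went from 0 higher to 6 without GF1 (9 of 9 positive, median 0.27). Potassium channels went from 7 higher and 3 lower to 1 and 6 without CON2. Cytosolic ribosomal proteins, of which 35 of 82 were positive, went from 1 lower to 11 without CON4 (6 of 82 positive, median -0.14), and 74 of 82 were positive without CON2 (median 0.11). Nuclear subunits of oxidative phosphorylation, of which 56 of 76 were positive, went from 3 higher to 8 without CON2 (73 of 76 positive, median 0.14) and to 0 without CON4 (27 of 76 positive, median -0.05). Cytosolic ribosomal proteins had a median of -0.01 over 82 members, proteasome subunits 0.02 over 34 and nuclear subunits of oxidative phosphorylation 0.05 over 76. Glutamate receptors had -0.03, GABA receptors 0.08, serotonin and dopamine receptors 0.00, voltage-gated sodium channels 0.00, calcium channels -0.02, synaptic vesicle proteins 0.08 and postsynaptic scaffold proteins 0.01. Potassium channels had -0.01 over 76 members, and the most negative was Kcnj16, an inward rectifier of glia, at 12.4, 5.02, 13.5 and 27.8 CPM in CON1 to CON4 and 3.04, 6.33, 3.69 and 4.5 CPM in GF1 to GF4 (-1.72 ± 0.39, adjusted p = 0.144); CON2 lay within the GF range. Among the stress lists, heat shock proteins had 0.06, the unfolded protein response -0.09, the oxidative stress response -0.03, hypoxia-induced genes -0.07 and glucocorticoid-responsive genes 0.09, in which Tsc22d3, the glucocorticoid-induced zipper protein, was positive without overlap (0.41 ± 0.09, adjusted p = 0.125). Histone deacetylases and sirtuins had -0.01, and the aryl hydrocarbon receptor and kynurenine pathway, which bacterial tryptophan products can engage, -0.02 over 8 of 13 members (-0.21 without CON2 and 0.17 without GF4). Tubulins had 0.02, with Tubb6 at 5.27, 6.5, 4.07 and 4.36 CPM in CON1 to CON4 and 1.56, 1.92, 2.73 and 3.07 CPM in GF1 to GF4, all GF libraries below CON (-1.11 ± 0.23, adjusted p = 0.112).

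Among the 17 called genes that stood in no list, 15 were lower in GF. On chromosome 4, called genes with overlapping annotated spans were Il11ra1 (41699989 to 41769474, plus strand), a subunit of the interleukin-11 receptor, and Galt (41755228 to 41758695, plus strand), an enzyme of galactose breakdown. Il11ra1 was at 18.2, 46.1, 24.9 and 20.2 CPM in CON1 to CON4 and 11.6, 8.78, 9.53 and 9.43 CPM in GF1 to GF4 (-1.48 ± 0.24, adjusted p = 0.0221) and Galt at 55.5, 98.2, 71.2 and 58.4 CPM in CON1 to CON4 and 42.2, 29.7, 35.2 and 32.8 CPM in GF1 to GF4 (-1.02 ± 0.16, adjusted p = 0.0195). CON2 was the highest library for both. Reads were counted without regard to strand and 57.7% of the 31-base words of Il11ra1 occur in Gm13305, so the values of both genes are uncertain and are not independent results.

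Several of the largest differences were in pseudogenes and predicted genes. Rps26-ps1, a processed copy of the ribosomal gene Rps26, was at 5.35, 18.2, 9.23 and 4.74 CPM in CON1 to CON4 and 0.0741, 0.58, 0.161 and 0.658 CPM in GF1 to GF4 (-4.55 ± 0.53, adjusted p = 0.00519), and 91.9% of its 31-base words occur in other genes. Gm10039, a copy of Atp5g1, was at 21.6, 45.1, 33 and 20.9 CPM in CON1 to CON4 and 2.37, 1.78, 8.72 and 5.87 CPM in GF1 to GF4 (-2.67 ± 0.38, adjusted p = 0.012), with 92.9% shared. Gm6612 (chromosome 15, 80952505 to 80952899) had 1, 0, 0 and 0 reads in CON1 to CON4 and 22, 20, 11 and 12 in GF1 to GF4 (adjusted p = 0.0063), at least 8.09-fold higher in GF against a floor of 3 reads in each CON library. Gm3636 (chromosome 14, 6735685 to 6742332) had 13, 21, 17 and 13 reads in CON and 0 in each GF library (adjusted p = 0.0185), at least 3.66-fold lower, and 93.5% of its words are shared. Gm6505 (chromosome 3, 28764713 to 28765360) had 13, 10, 26 and 20 reads in CON and 0, 0, 2 and 0 in GF (adjusted p = 0.0305), at least 3.81-fold lower, with 85% shared; it lost its call without CON3 or GF4 (adjusted p up to 0.124). The antisense gene Gm12462 (chromosome 4, 44664415 to 44685347), with 17, 28, 33 and 11 reads in CON and 0, 1, 1 and 0 in GF, did not pass the filter on low counts and was at least 5.03-fold lower. The shared part was 12.3% of the words for Gm6612 and 3.19% for Gm12462. Values of the copies that share most of their words are the most uncertain, because reads that map to several places were left out of the counts.

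Other called genes in no list included Vill, a villin-like actin binder, at 2.17, 3.36, 3.19 and 1.06 CPM in CON1 to CON4 and 0.37, 0.312, 0.161 and 0.603 CPM in GF1 to GF4 (-2.75 ± 0.44, adjusted p = 0.0195), and Ssbp4, a DNA-binding protein, at 108, 134, 93.7 and 86.4 CPM in CON1 to CON4 and 64.5, 49, 62.6 and 66.8 CPM in GF1 to GF4 (-0.80 ± 0.13, adjusted p = 0.0242). D030028A08Rik, a noncoding transcript that shares 22.4% of its 31-base words elsewhere, was at 5.55, 6.38, 9.64 and 7.4 CPM in CON1 to CON4 and 1.63, 1.11, 2.19 and 2.52 CPM in GF1 to GF4 (-1.97 ± 0.25, adjusted p = 0.0063). All 3 remained called in every fit without a library. Stag3, a cohesin subunit of meiosis, was at 0.735, 0.68, 0.577 and 0.645 CPM in CON1 to CON4 and 0.148, 0.178, 0.161 and 0.0548 CPM in GF1 to GF4 (-2.22 ± 0.44, adjusted p = 0.0819) and lost its call whichever library was left out (adjusted p up to 0.255). Thsd4, a secreted matrix protein, had -0.60 ± 0.12 (adjusted p = 0.0897) and remained called only without CON2 among those fits (up to 0.217). Pnmal2 had -0.40 ± 0.08 (adjusted p = 0.0735) and lost its call without CON2, CON3, GF2, GF3 or GF4 (up to 0.255), and BC051226, a noncoding gene, had -0.99 ± 0.18 (adjusted p = 0.0474) and lost it without CON1, CON3 or GF4 (up to 0.162). Tpm3-rs7, a copy of the tropomyosin gene Tpm3 that shares 78.6% of its words with it, was at 48.3, 35, 56.3 and 47.8 CPM in CON1 to CON4 and 69.8, 75.7, 74.3 and 71.8 CPM in GF1 to GF4 (0.64 ± 0.12, adjusted p = 0.0474) and lost its call without CON1, GF3 or GF4 (up to 0.159).

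**Figure D5:**
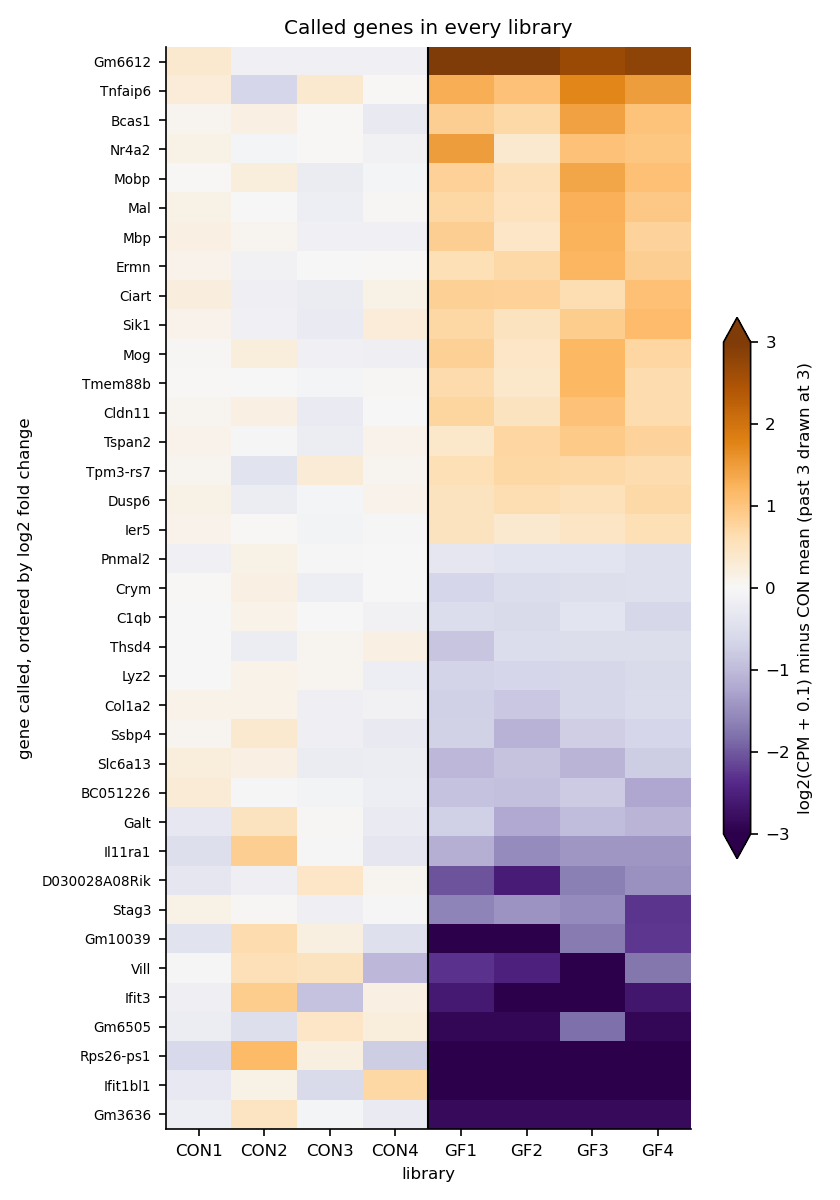
Each row is 1 of 37 of the 39 called genes and each column a library, coloured by log2(CPM + 0.1) minus the mean of the 4 CON libraries, with values past 3 drawn at 3. All GF columns lie on one side of the CON columns in each row, and GF3 is the darkest column for most myelin genes.

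Among genes at 1 CPM or more whose groups did not overlap and whose unadjusted p was under 0.05, several large differences were not called. Dct, a melanin enzyme, was at 1.1, 1.02, 0.951 and 0.645 CPM in CON1 to CON4 and 6.52, 2.54, 3.42 and 1.32 CPM in GF1 to GF4 (1.86 ± 0.40, adjusted p = 0.125). Cfap74, a component of cilia, was at 8.01, 6.12, 5.57 and 9.07 CPM in CON1 to CON4 and 20.5, 11.3, 16.6 and 10.03 CPM in GF1 to GF4 (1.01 ± 0.22, adjusted p = 0.126). Nek11, a cell cycle kinase, had 1.19 ± 0.36 (adjusted p = 0.313). Downward, H2-Eb1, described above, was accompanied by Hmgb1-ps7, a pseudogene with -1.88 ± 0.45 (adjusted p = 0.155). Motile cilium genes as a list were negative in 18 of 23 members tested (median -0.11, and -0.26 without GF1).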

How the data were processed

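RNA from the prefrontal cortex of 4 GF and 4 CON pooled libraries was analysed from the table of raw counts per gene that the authors deposited. Per the submitters' processing notes, reads were processed with CASAVA, Trimmomatic 0.32, STAR 2.3.1u and HTSeq 0.6.0, with DESeq2 1.6.2 for their tests, on GRCm38. The library kit keeps strand and the counting did not use it, so antisense and overlapping genes cannot be told apart. Reads that mapped to several places (13.7 to 19.2% of all entries per library), to no feature (4.57 to 5.89%) or ambiguously (1.10 to 1.32%) stood in rows that name no gene and were left out. The 4 columns of colonized germ-free mice were not used.

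Counts were normalized by TMM, filtered with the default of filterByExpr and tested with the quasi-likelihood test of edgeR 4.0.16 (R 4.3.3) with Benjamini-Hochberg adjustment over 15542 of 41388 genes. Genes with an adjusted p under 0.1 were called. Each SE was the absolute log2 fold change divided by the square root of the F statistic of the quasi-likelihood test. It rests on a spread between pools that the model shares in part across genes. The p-values set the group difference against that spread. The script was tested on simulated data. Alternatives used RLE or upper-quartile scaling, other filters, DESeq2 1.42.0, limma-voom (limma 3.58.1), a block for the replicate number, a threshold of 0.05 and each library left out in turn. Words of 31 bases shared with other genes were counted from reference transcripts.

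The gene lists and the genes named were chosen with earlier results of these data known. Named were all called genes, for each list the 4 members with the lowest p and the first 3 as written, the 10 largest changes in each direction among genes at 1 CPM or more with an unadjusted p under 0.05 and no overlap, and genes at 3 counts or fewer in one group and 10 or more in each library of the other. Outside this rule, Aif1, Arc, Aspa, Cnp, Col4a5, Cry1, Dusp1, Egr1, Ifih1, Irf7, Junb, Myrf, Npas4, Nr1d1, Nr1d2, Olig1, Olig2, Ptgds and Sox10 were named after their values were seen. Some genes, called ones included, are not reported here.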

Additional observations from a re-analysis of the deposited data

Results flagged for a closer look

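In 10 of 204 groups of 4 libraries, 1 library lay farther from the others than Dixon's 95% critical value of 0.829 allows, and chance alone sets apart about 1 group in 20. Among list values (mean log2 CPM over members, minus the CON mean), CON2 was the highest for striatal projection neurons at 0.866, against -0.339 to -0.251 in the other CON libraries, and for complement at 0.102, against -0.0437 to -0.0284. CON1 was the highest for immediate early genes at 0.228, against -0.0947 to -0.045. GF1 was the highest for claustrum markers at 0.477, against 0.28 to 0.29 in the other GF libraries, and the lowest for heat shock proteins at 0.0403, against 0.126 to 0.132, and for serotonin and dopamine receptors at -0.515, against 0.0381 to 0.0899. GF4 was the lowest for replication-dependent histones at -0.307, against -0.0296 to -0.00182. Among called genes, Thsd4 was at 10.1 CPM in GF1 and 12.8 to 13 CPM in the other GF libraries. Gm6612 was at 0.0408 CPM in CON1 and 0 in the other CON libraries, and Gm6505 was at 0.107 CPM in GF3 and 0 in the other GF libraries.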

How the results depend on the processing

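Of 39 called genes (18 higher, 21 lower), all 39 were also called with RLE scaling (41 calls) and upper-quartile scaling (46 calls), and 38 with limma-voom (47 calls). Without a filter on low counts 221 genes were called (93 higher, 128 lower), over 24405 genes tested, and with DESeq2 195 (96 higher, 99 lower). With at least 10 counts required in every library 31 were called. Leaving out 1 library gave 27 to 60 calls, 13 to 34 of them higher and 14 to 27 lower. The replicate block gave 51 calls, 30 of them higher and 21 lower, with 34 shared. Same-numbered libraries had correlations of -0.0851 to 0.0478 between their deviations from the group means, so the numbers did not pair the libraries. No called gene changed sign under these alternatives. Among named genes that were not called, 144 pairs of gene and setting had the opposite sign to the main fit. Medians of some lists, several of them close to 0, changed sign in some settings. That of newly formed oligodendrocytes lay between -0.03 and 0.08. The median of blood genes lay between -1.52 and 0.49 and that of choroid plexus genes between -0.70 and 0.13. For striatal projection neurons the median went from -0.18 to 0.18 without CON2. Depth limits genes of few counts most in GF1, the shallowest library, and counts per gene give no measure of cell number.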
